A study of Gossypium barbadense and Gossypium hirsutum with 4 samples.

Results

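Lipid transfer protein (LTP) and β-ketoacyl-CoA synthase (KCS) probe sets were followed in the growing fiber of 2 cultivated cottons, *G. hirsutum* (*Gh*) and *G. barbadense* (*Gb*). The members were 4 listed probe sets, 3 named for LTPs (Ghi.10721.1.S1_at, Ghi.6324.1.A1_x_at and Gra.378.1.A1_s_at) and 1 for a KCS (GhiAffx.2499.1.A1_s_at), and every other probe set with the same prefix and cluster number. Only the Ghi.6324 cluster held a further probe set, Ghi.6324.1.S1_x_at, so that there were 5 members among 24029 probe sets. The 4 listed ones had been picked from rows of the study's table of differential genes that stand higher in *Gh* on these same arrays. Their direction was therefore fixed by the choice, and their differences are given as a description without a test. The names rest on similarity, and Ghi.6324 is an LTP by Blast2GO although its array description reads unknown protein. For Gra.378 no Blast2GO name was given, and its array description names a family of protease inhibitors, seed storage proteins and LTPs of Arabidopsis.

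The *Gh* arrays held fiber RNA of the variety Guazuncho 2 and the *Gb* arrays that of VH8-4602, untreated, glasshouse-grown and harvested at 11 dpa (days post anthesis). There were 2 arrays per genotype, here called V.1 and V.2 for *Gb* and G.29 and G.30 for *Gh*, each with RNA pooled from several plants and described in the methods as independent replicates. Each genotype is a single variety, so that variety and species cannot be told apart.

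LTPs are small secreted proteins with a hydrophobic cavity that carries lipids, and in plants they are best known from the epidermis and its cuticle. The cotton fiber is a single epidermal cell of the seed coat, and LTP transcripts are among the known abundant messages of its elongation. KCS is the condensing enzyme of the elongase in the endoplasmic reticulum, which lengthens acyl-CoA into very-long-chain fatty acids, the precursors of waxes, cutin-associated lipids and sphingolipids. In cultured cotton ovules such fatty acids are known to promote fiber elongation.

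Values are log2 signals. Below a log2 signal of 4, the floor used throughout, no level was read from a probe set. Array medians lay between 4.26 and 4.36, and 47.0% to 47.3% of the probe sets on an array reached a log2 signal of 5. For the actin control transcript, the log2 difference between its 5′ and 3′ probe sets, a sign of RNA quality, was lower in *Gb* (-3.03 and -3.07) than in *Gh* (-2.52 and -2.18). For the control ss1 it was -4.87 and -5.04 in *Gb*, -4.62 on G.29 and -3.62 on G.30. For the control ubq11 it was -1.94 and -1.80 in *Gb*, -1.79 on G.29 and -1.36 on G.30, so that the genotypes nearly met. The part of RNA quality in the differences was not tested. Of the fiber markers, both alpha-expansins and a xyloglucan endotransglycosylase were above the floor on every array. The 3 green-tissue markers, which like the fiber markers came from rows higher in *Gh*, were higher on both *Gh* arrays in 3 of 3 cases. Summed over the 3, their log2 signal was 7.50 and 8.07 in *Gb* against 9.44 and 9.79 in *Gh*. The 3 fiber markers were likewise higher on both *Gh* arrays in 3 of 3 cases, a pattern shown by 19.7% of all probe sets. Their summed log2 signal was 12.40 and 12.45 in *Gb* against 14.12 and 14.04 in *Gh*. The difference was -1.65, against -1.83 for the green-tissue markers. For both groups of markers the choice of rows fixed the direction. The paper reports other xyloglucan endotransglycosylases higher in *Gb* on these arrays, and expansins higher in *Gb* by sequencing of other fiber samples. On both *Gb* arrays photosystem I subunit IV was under the floor, and the part of green tissue in the results below was not tested. In RNA from whole fiber harvests, fewer cells of a type and less RNA per cell cannot be told apart.

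The LTP probe set Ghi.10721.1.S1_at, described by weak similarity to the lipid-binding protein LP1 of Arabidopsis, had log2 signals of 9.06 and 9.27 on the *Gb* arrays and 12.19 and 12.37 on the *Gh* arrays. Its 2 groups of arrays were far apart, with 2.92 between the nearest arrays and at most 0.21 between replicates. Means of 2 arrays were 9.16 (SD 0.15) for *Gb* and 12.28 (SD 0.12) for *Gh*, a difference of -3.12 on the log2 scale (*Gb* minus *Gh*, standard error 0.11) or an 8.67-fold higher signal in *Gh*. Among the 24029 probe sets it took place 206 when these were ordered by the difference toward *Gh*. Its name ends in _at alone, which on these arrays marks a probe set designed for a single transcript. How well its probes match the *Gb* transcript was not tested, and the same holds for all other probe sets named here.

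The LTP Ghi.6324.1.A1_x_at was the brightest of the members, with log2 signals of 13.49 and 13.56 in *Gb* and 14.66 and 14.70 in *Gh*. Replicate arrays differed by no more than 0.07, and the nearest arrays of the genotypes by 1.10. The difference was -1.15 (standard error 0.04), a 2.22-fold higher signal in *Gh*. In both genotypes it was among the brightest probe sets of the array, at places 392 and 445 from the top in *Gb* and 97 and 110 in *Gh*. Its ending, _x_at, marks probes that can also bind other transcripts, so that its signal may be that of several LTP copies.

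Its cluster mate Ghi.6324.1.S1_x_at, whose own values had no part in the choice, had log2 signals of 6.50 and 6.25 in *Gb* and 6.57 and 7.12 in *Gh*. The nearest arrays of the genotypes were 0.06 apart, less than the 0.55 between the *Gh* arrays. The difference was -0.47 (standard error 0.25) and missed the threshold of 0.05 (adjusted p = 0.311 by limma, Benjamini-Hochberg over all 24029 probe sets), where 20.3% of all probe sets passed. It passed when the arrays were scaled to the hybridization controls (difference -0.75). It also passed when a t-test of common variance modelled on the methods was used with Benjamini-Hochberg adjustment. With the Bonferroni adjustment that the study's methods name, it did not pass by that t-test. Both probe sets of the cluster carry the ending _x_at, and whether they detect the same transcripts was not tested.

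The LTP family probe set Gra.378.1.A1_s_at, designed from the D-genome species *G. raimondii*, had log2 signals of 7.85 and 6.89 in *Gb* and 8.11 and 8.66 in *Gh*. The *Gb* arrays differed from each other by 0.95, far more than the 0.26 between the nearest arrays of the genotypes. The difference of the means was -1.01 (standard error 0.44), or 2.02-fold, close to the 0.95 between the *Gb* arrays. Without V.1 the difference was -1.49 and without V.2 it was -0.54, so that its size rested on single *Gb* arrays.

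The KCS probe set GhiAffx.2499.1.A1_s_at had the largest difference of the 5. Its log2 signals were 5.99 and 5.21 in *Gb* and 10.58 and 10.62 in *Gh*. All 4 arrays lay above the floor, and the nearest arrays of the genotypes were 4.59 apart. Means of 2 arrays were 5.60 (SD 0.56) for *Gb* and 10.60 (SD 0.03) for *Gh*, a difference of -5.0 (standard error 0.32) or a 32.1-fold higher signal in *Gh*. It took place 70 in the order of differences toward *Gh*. The *Gb* signal stood near the lower end of the measurable range, where replicate arrays were 0.79 apart against 0.04 in *Gh*. The ending _s_at marks probes shared by several transcripts, and how well they match the *Gb* transcript was not tested.

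**Figure D1:**
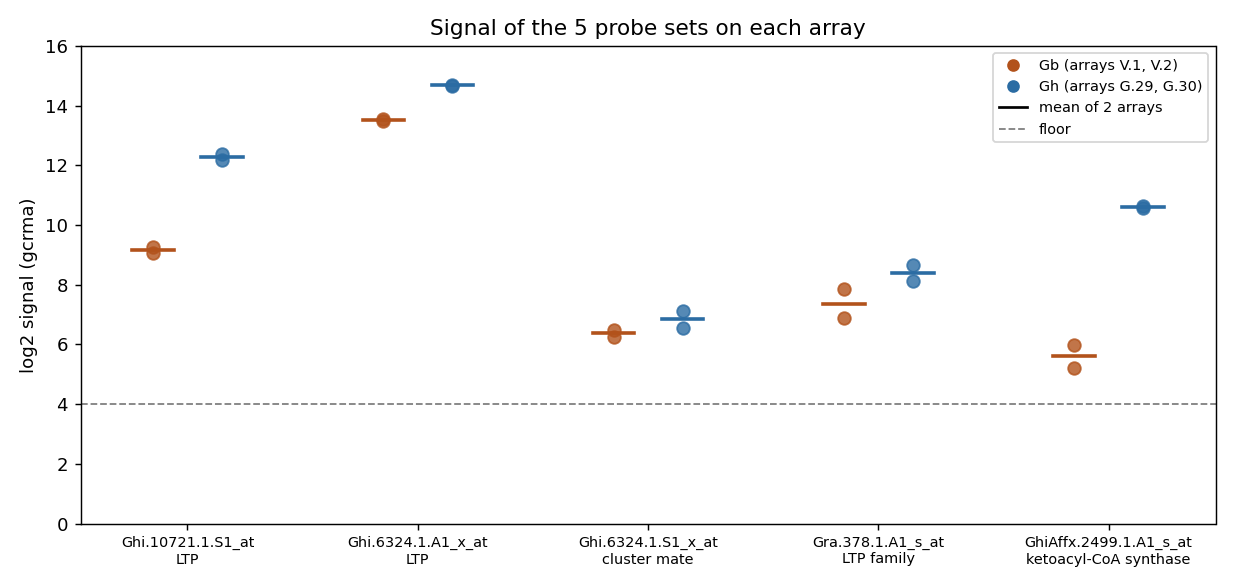
Log2 signal (gcrma, vertical axis) of the 5 probe sets on each of the 4 arrays, with points for arrays, short lines for the mean of the 2 arrays and a dashed line for the floor of 4. The KCS signal lies at 5.21 and 5.99 in *Gb* and near 10.6 in *Gh*, whereas the arrays of the genotypes nearly meet for Gra.378.1.A1_s_at and Ghi.6324.1.S1_x_at.

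For all 5 members both *Gb* arrays lay below both *Gh* arrays, a pattern shown by 19.7% of all probe sets, while 62.3% showed the opposite one. These shares include 11063 probe sets that lay below the floor in both genotypes. By limma, 11.4% of all probe sets passed with a higher signal in *Gb* and 8.87% with a higher signal in *Gh*. The mean was at least 2-fold higher in *Gh* for the 4 listed probe sets, as for 5.20% of all probe sets, and 4.65% were at least 2-fold higher in *Gb*. Since the choice used this contrast, nothing is read from these counts. The gap between the nearest arrays of the genotypes exceeded the larger replicate spread for 3 of the 4 listed probe sets, and for the cluster mate it did not. The choice favored wide gaps among the listed probe sets, so that nothing is read from this count either. Its share over all probe sets was not computed. Leaving out any 1 array gave a range of -3.22 to -3.01 for Ghi.10721.1.S1_at, of -1.19 to -1.12 for Ghi.6324.1.A1_x_at and of -5.40 to -4.61 for GhiAffx.2499.1.A1_s_at.

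The brightness rank was expressed as the share of probe sets that were dimmer on the same array. Probes differ in affinity, so that this rank describes the array signal and not the amount of transcript. Ghi.6324.1.A1_x_at was brighter than 98.3% of the probe sets in *Gb* and 99.6% in *Gh*. Ghi.10721.1.S1_at went from 77.1% in *Gb* to 94.8% in *Gh*, and the KCS probe set from 55.6% to 87.0%. The corresponding shares were 65.0% and 71.9% for Gra.378.1.A1_s_at and 59.2% and 61.7% for Ghi.6324.1.S1_x_at, whose arrays lay close together across genotypes. The order of brightness among the 5 was also different. In *Gb* the KCS probe set was the dimmest, and its nearest arrays were 0.25 below Ghi.6324.1.S1_x_at, less than its own replicate spread. The gap of 0.39 between Gra.378.1.A1_s_at and Ghi.6324.1.S1_x_at in *Gb* was likewise smaller than the replicate spread. In *Gh* the KCS probe set stood at place 3, 1.93 above Gra.378.1.A1_s_at and 1.57 below Ghi.10721.1.S1_at, and every gap between neighbors was larger than the replicate spread.

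**Figure D2:**
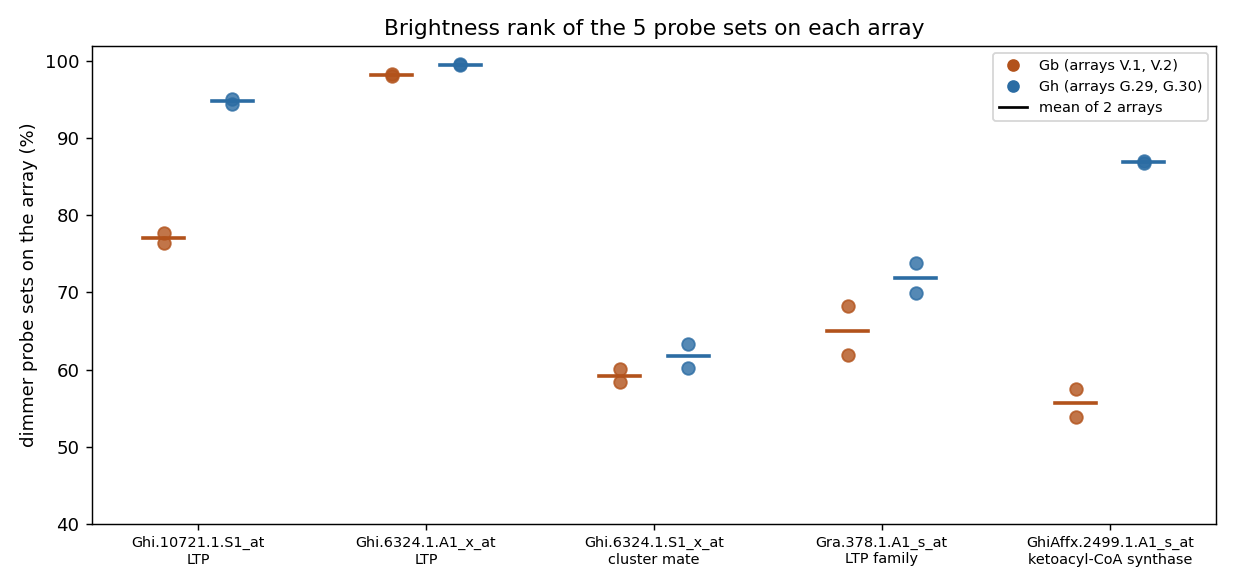
Share of the 24029 probe sets that were dimmer on the same array (in percent, vertical axis starting at 40) for the 5 probe sets, with points for arrays and lines for the mean of the 2 arrays of a genotype. Ghi.6324.1.A1_x_at lies above 98% on every array, and the KCS probe set lies at 55.6% on average in *Gb* and 87.0% in *Gh*.

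Other probe sets with lipid names were taken from the same rows of the study's table, 20 in all, and these rows again hold only probe sets higher in *Gh*. A further 2 ATP-binding cassette names, described by similarity to other ATPases, were not taken. All 20 had both *Gb* arrays below both *Gh* arrays, and 16 passed the limma threshold with a higher signal in *Gh*, as did 8.87% of all probe sets. The rows fixed their direction and held only large differences, so that nothing is read from these counts or from the size of the median. Their median difference was -1.41, against 0.04 over all probe sets, and -1.44 over the 19 that were measurable in *Gh* when a *Gb* signal below the floor was raised to it.

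**Figure D3:**
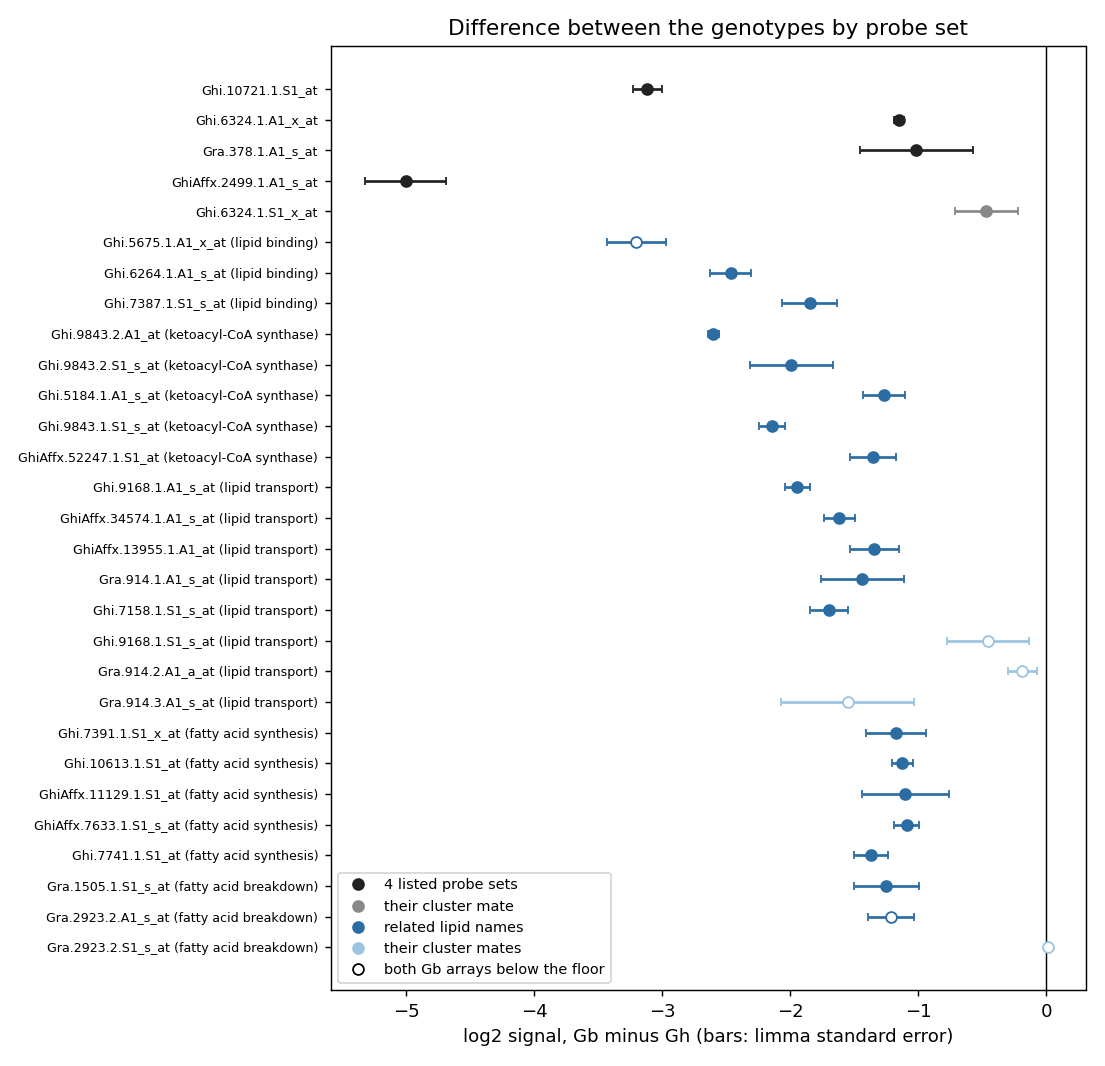
Difference of the log2 signal, *Gb* minus *Gh* (horizontal axis), for the 5 probe sets, the 20 related lipid names and their 4 cluster mates, with bars for the limma standard error and open circles where both *Gb* arrays lay below the floor. The related names lie between -3.20 and -1.09, the cluster mate Ghi.6324.1.S1_x_at at -0.47, and 3 of the 4 cluster mates of the related names between -0.45 and 0.01.

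A further 4 probe sets had synthase names, 3 of them from the cluster Ghi.9843, which can share transcripts. Ghi.9843.1.S1_s_at, named beta-ketoacyl synthase without the CoA that the other names carry, had 9.15 and 9.09 in *Gb* and 11.15 and 11.38 in *Gh*, where the signal was 4.42-fold higher. Ghi.9843.2.S1_s_at was 3.97-fold higher, but its *Gh* arrays differed by 0.78. Near the floor in *Gb* (4.16 and 4.15), Ghi.9843.2.A1_at was 6.07-fold higher. The KCS probe set Ghi.5184.1.A1_s_at, had 12.47 and 12.19 in *Gb* and 13.74 and 13.45 in *Gh*, a 2.41-fold higher signal. Its difference of -1.27 was smaller than that of GhiAffx.2499.1.A1_s_at, and its signal was high in both genotypes. A CER2-like elongase protein (GhiAffx.52247.1.S1_at), of a family needed in Arabidopsis for the longest acyl chains, was 2.56-fold higher in *Gh*.

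The lipid-binding names, given by similarity to Arabidopsis, comprised 3 probe sets. Ghi.6264.1.A1_s_at had 10.72 and 10.34 in *Gb* and 13.06 and 12.93 in *Gh*, where the signal was 5.53-fold higher. Ghi.7387.1.S1_s_at had 11.85 and 11.34 in *Gb* and 13.35 and 13.53 in *Gh*, a 3.60-fold higher signal. A 14 kDa proline-rich protein similar to a lipid-binding protein (Ghi.5675.1.A1_x_at) had *Gb* signals under the floor and reached 5.90 and 6.47 in *Gh*, at least 4.54-fold higher when the *Gb* signal is set to the floor.

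Among the transporters, a white-brown-complex ABC transporter (Ghi.9168.1.A1_s_at), of the class of transporters that export wax and cutin precursors in Arabidopsis, was 3.85-fold higher in *Gh*, with 9.45 and 9.64 in *Gb* and 11.56 and 11.41 in *Gh*. An acyl-CoA-binding protein (Ghi.7158.1.S1_s_at), of the class that carries acyl-CoA through the cytosol, was 3.24-fold higher. ABC transporter names without a stated substrate were 3.07-fold (GhiAffx.34574.1.A1_s_at), 2.71-fold (Gra.914.1.A1_s_at) and 2.53-fold (GhiAffx.13955.1.A1_at) higher. Of these, Gra.914.1.A1_s_at did not pass the limma threshold.

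Among the enzymes that make and modify fatty acids, a cytochrome P450 similar to the fatty acid hydroxylase CYP86A8 (Ghi.7741.1.S1_at) had 10.31 and 10.60 in *Gb* and 11.75 and 11.91 in *Gh*, where the signal was 2.59-fold higher. A plastid omega-3 desaturase (Ghi.10613.1.S1_at) and an acyl-ACP thioesterase (GhiAffx.7633.1.S1_s_at), which releases fatty acids in the plastid, were 2.18-fold and 2.13-fold higher. The stearoyl-ACP desaturase Ghi.7391.1.S1_x_at (2.26-fold) and the omega-6 desaturase GhiAffx.11129.1.S1_at (2.14-fold) did not pass the threshold, and 1 *Gb* array of the latter lay below the floor. Of the beta-oxidation names, Gra.1505.1.S1_s_at was 2.38-fold higher without passing the threshold, and the enoyl-CoA hydratase Gra.2923.2.A1_s_at, although it passed, was below the floor on all 4 arrays and is given no fold.

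The clusters of the related names held 4 probe sets outside the rows used, none of them above the floor on all 4 arrays. With limma 0 of the 4 passed the threshold, where 20.3% of all probe sets passed. An unadjusted limma p under 0.05 was reached by 0 of the 4, against 7826 of all 24029 probe sets. Scaling to the hybridization controls gave 3 of the 4 past the threshold, against 7530 of all. With so few probe sets, nothing is read from these counts. Gra.914.3.A1_s_at was below the floor in *Gb* and at 5.90 and 4.60 in *Gh*, with replicates 1.29 apart (adjusted p = 0.167 from limma). Ghi.9168.1.S1_s_at, of the white-brown-complex cluster, was below the floor on both *Gb* arrays and on 1 *Gh* array, and had an adjusted p of 0.391 from limma. Gra.914.2.A1_a_at was below the floor on both *Gb* arrays and on G.30 (3.75), and at 4.01 on G.29. Gra.2923.2.S1_s_at was below the floor on all 4 arrays. These probe sets stand outside rows cut at a higher signal in *Gh*, so that their smaller differences are in part fixed by that choice.

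**Figure D4:**
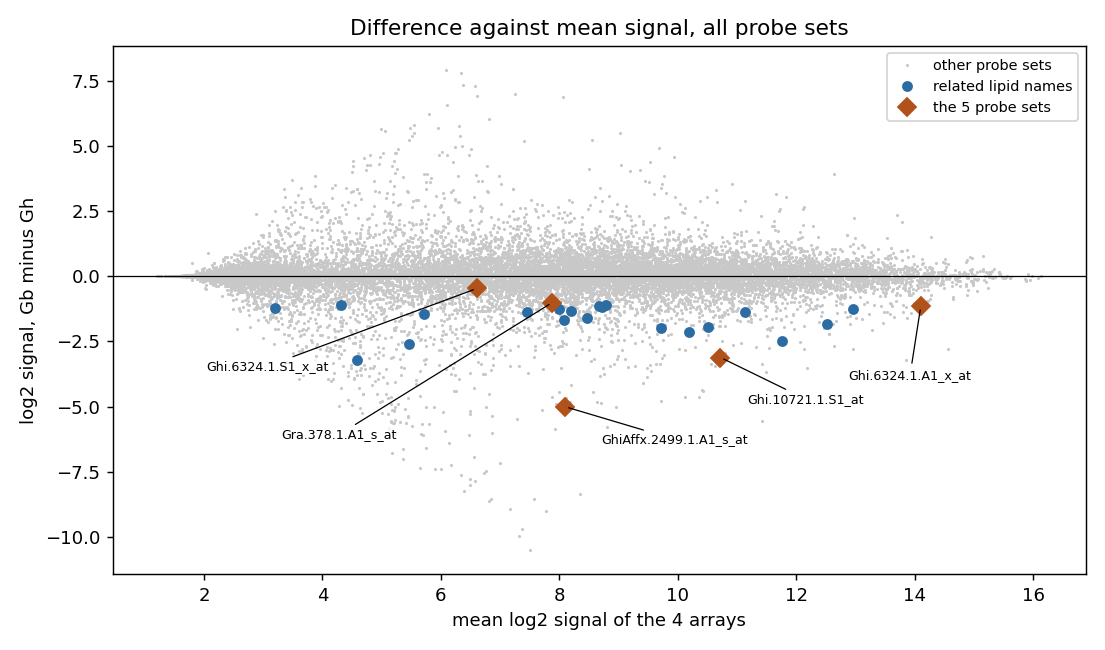
Difference of the log2 signal, *Gb* minus *Gh* (vertical axis), against the mean log2 signal of the 4 arrays (horizontal axis) for 24029 probe sets in grey, the related lipid names in blue and the 5 probe sets as brown diamonds. GhiAffx.2499.1.A1_s_at at -5.0 and Ghi.10721.1.S1_at at -3.12 lie below most grey points of like signal, and Ghi.6324.1.A1_x_at lies at the bright end.

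Probe sets with a Blast2GO name in the rows used were ordered by how near their profile was to that of each listed probe set, as the Euclidean distance over the 4 arrays after subtraction of the probe set's own mean. With 2 arrays per genotype this measure mostly compares the size of the difference. Nearest to the KCS probe set among 641 was a cytochrome P450 (Ghi.1119.1.S1_s_at, distance 0.34, difference -5.26, with 1 *Gb* array below the floor), followed by a leucine-rich repeat protein (Ghi.10609.1.S1_s_at, 0.48). Ghi.10721.1.S1_at was nearest to GhiAffx.10674.1.S1_at (0.19), named only as a protein and below the floor in *Gb*, and to a mannose 6-phosphate reductase (Ghi.1211.1.S1_s_at, 0.22). For Ghi.6324.1.A1_x_at the nearest was an auxin-repressed protein (Ghi.7133.2.S1_s_at, 0.06). For Gra.378.1.A1_s_at it was the omega-6 desaturase GhiAffx.11129.1.S1_at (0.29), whose *Gb* arrays were apart in the same way, with V.1 above V.2 in both probe sets.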

How the data were processed

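Total RNA of 11 dpa fibers was hybridized to 4 Affymetrix cotton arrays, 2 per genotype. The deposited log2 signals, with a column for each array, were made by the authors with gcrma over all 4 arrays; its version is not given in the sources used here. Quantile normalization within gcrma equalizes the arrays, so that a shift of all transcripts would not be seen. From these, 103 control probe sets were left out and the genotypes were compared with limma 3.58.1 in R 4.3.3 (lmFit, eBayes, two-sided, Benjamini-Hochberg over 24029 probe sets, threshold 0.05), which was also tested on simulated data. Precision is limited by the number of arrays, and an exact permutation test of 2 arrays against 2 cannot go below p = 0.333. The limma p-values set each difference against the spread between these arrays, which limma pools in part over all probe sets.

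The members and lists were chosen with earlier results of these data known. Names came from 1159 rows of the study's table of differential genes, and its values were not used. The probe sets named are the listed ones, their cluster mates, 20 lipid names from those rows with their cluster mates, and the nearest profiles (3 for each listed one were computed). The cluster mates of the related names were named after their values were seen. Probe sequences were not used here. The alternatives tried were Bonferroni adjustment, a t-test of common variance modelled on the methods (here called the methods' t-test) and other eBayes priors. A filter (log2 signal of 5 on 2 arrays), other scalings and a difference of at least 1 were also tried. So were other floors, other references for the rank, and leaving out each array. The t-test took a single variance for all probe sets as known, with p-values from the normal distribution. It left out probe sets of extreme variance by limits set here, among them Gra.378.1.A1_s_at and GhiAffx.2499.1.A1_s_at. Plots were drawn with matplotlib 3.10.9.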

Additional observations from a re-analysis of the deposited data

How the results depend on the processing

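All 4 listed differences and that of Ghi.6324.1.S1_x_at kept their sign under every scaling and without any 1 array. Scaling to the hybridization controls takes 0.28 from every difference and moved the median over all probe sets from 0.04 to -0.25. It gave -3.40 for Ghi.10721.1.S1_at and -1.43 for Ghi.6324.1.A1_x_at, and the latter was -1.07 with array medians subtracted and -1.20 with cyclic loess. Leaving out 1 array gave -3.22 to -3.01, -1.19 to -1.12, -1.49 to -0.54 (Gra.378.1.A1_s_at) and -5.40 to -4.61 (GhiAffx.2499.1.A1_s_at). No listed probe set lay below a floor of 3, 4 or 5 on both arrays of a genotype.

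Over all probe sets, 4880 passed (2749 higher in *Gb*, 2131 higher in *Gh*). After Bonferroni, 33 passed by limma, and 4187 of 22937 tested by the methods' t-test. That t-test passed 17 of the 17 related lipid names it tested, as the choice of rows fixed. Below, Bonferroni without a named test refers to limma. With the filter on dim probe sets, 5713 of 11644 passed (3167 higher in *Gb*, 2546 higher in *Gh*). The other counts over all probe sets were 7559 with the methods' t-test after Benjamini-Hochberg, 1978 with a difference of at least 1, and 7530 with the hybridization controls (1990 and 5540). Leaving out 1 array gave 2542 (without V.2) to 3947, with 2798 without V.1. Of the 20 related lipid names, 0 passed with Bonferroni and 10 (without V.2) to 13 without 1 array, and 7 of the 16 calls held without any 1 array. The cluster mate of the listed probe sets, which did not pass, passed with the methods' t-test after Benjamini-Hochberg and with the hybridization controls (1 of 1 each). By the methods' t-test after Bonferroni it did not pass. Of the 4 cluster mates of the related names, 3 passed with the hybridization controls, and 0 to 2 without 1 array (1 without G.30, 2 without G.29).

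Among the 11366 probe sets whose mean over the arrays reached a log2 signal of 5, the mean rank over the 4 arrays was 70.2% for Ghi.10721.1.S1_at (85.9% among all), 97.7% for Ghi.6324.1.A1_x_at (98.9%), 33.3% for Gra.378.1.A1_s_at (68.5%), 39.7% for GhiAffx.2499.1.A1_s_at (71.3%) and 16.6% for Ghi.6324.1.S1_x_at (60.5%). Among the 12727 probe sets named for a single transcript it was 92.0%, 99.7%, 77.2%, 78.8% and 68.9%. No paired analysis was possible because the arrays of the genotypes share no replicate number.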
